A study of Mus musculus with 4 samples.

Results

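Of the 1966 mature miRNA listed in small RNA libraries of cultured cortical neurons, 7 are arms of miR-129, miR-139 and miR-153. They were taken by name, as mmu-miR-129-5p, mmu-miR-129-1-3p, mmu-miR-129-2-3p, mmu-miR-139-5p, mmu-miR-139-3p, mmu-miR-153-3p and mmu-miR-153-5p, written below without the prefix for mouse. Of the 7, 6 had enough reads for a test. The 2 WT and 2 TgAD libraries came from primary neurons of mouse embryo cortex. By the sample labels, the cortex was dissected at E16.5 and the neurons were kept for 5 days in vitro. They were plated in medium with serum and later moved to serum-free medium. TgAD embryos came from the APP/PS1 strain B6C3-Tg APPswe, PSEN1dE9 85Dbo/J. They express a hybrid of mouse and human APP that bears the Swedish mutations, together with human presenilin 1 of the form PSEN1dE9, and both are driven by the prion promoter of the mouse, which is active chiefly in brain and spinal cord neurons. WT embryos carried neither transgene. Neurons of each embryo were cultured separately and then genotyped, and no group received a treatment.

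A miRNA gene is transcribed as a hairpin, from which a 5p arm and a 3p arm are cut. The arm that is loaded into Argonaute guides it to transcripts that pair with bases 2 to 8 of the miRNA, the seed, and represses them, whereas the opposite arm is usually degraded. The miR-129, miR-139 and miR-153 hairpins are known for their enrichment in neurons. miR-129-5p is known to repress the potassium channel Kv1.1 and to take part in the adjustment of synaptic strength to activity. miR-139 lies in the gene of the phosphodiesterase PDE2A, which breaks down cAMP and cGMP. miR-153 lies in the gene of the dense-core vesicle protein PTPRN2, and its 3p arm is known to repress APP and proteins of synaptic vesicle release.

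The mature sequences of RefSeq (GRCm38.p6) are shown because the results turn on which arm of a hairpin was counted and, for miR-129, on which locus and strand an arm could be assigned to. Of the 7 members, 6 matched by name. miR-129-1-3p is named only. Sequences run 5′ to 3′, and capitals mark the seed.
miR-129-5p: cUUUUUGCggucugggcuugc
miR-129-2-3p: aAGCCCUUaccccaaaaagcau
miR-139-5p: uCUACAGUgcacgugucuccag
miR-139-3p: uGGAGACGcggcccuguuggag
miR-153-3p: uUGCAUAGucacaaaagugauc
miR-153-5p: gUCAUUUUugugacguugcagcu
The 6 arms have 6 different seeds, and no other miRNA of the count files matched in RefSeq shares any of these seeds. miR-129-1-3p was not part of this comparison, so whether it shares one of these seeds was not checked.

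The hairpin of miR-139 lies at chr7:101475376-101475443 (GRCm38, plus strand). In GENCODE M21 it falls in an intron of all 10 transcripts of Pde2a that span it, and in intron 3 of the protein-coding gene model Gm45837 in 1 transcript, on the same strand as both. The hairpin of miR-153, at chr12:117250817-117250885 (plus strand), falls in intron 19 of both transcripts of Ptprn2 that span it, on the strand of that gene. An antisense gene, Gm5441, also spans it on the minus strand.

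miR-129 has 2 hairpins. Mir129-1, at chr6:29022619-29022691 (plus strand), overlaps an exon of the long noncoding RNA Gm3294. Mir129-2, at chr2:94241364-94241453 (minus strand), lies in an intron of the long noncoding RNA Mir670hg. The sequence of miR-129-5p is the same at both hairpins. A further hairpin, Mir129b, covers 65 bases of the Mir129-2 locus on the opposite strand, at chr2:94241378-94241442. Its arms are shown for their complementarity to the arms of Mir129-2, again with the seed in capitals.
miR-129b-5p: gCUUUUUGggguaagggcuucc
miR-129b-3p: cAAGCCCAgaccgcaaaaagauu
Of miR-129-2-3p and miR-129b-5p, 20 bases overlap as an exact reverse complement, and the same number overlap between miR-129-5p and miR-129b-3p. The strand setting of the counting is not given in the sources used here, and neither is the treatment of reads with several placements. Reads of these overlapping arms therefore cannot be told apart with certainty. In RefSeq the arms of miR-139 and miR-153 each lie at 1 locus with no arm opposite.

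The authors deposited whole reads per mature miRNA, between 2070204 and 4811010 per library, with 849 to 936 miRNA that had at least 1 read. Levels are given here in CPM, reads relative to the TMM-scaled library size, and fold changes are TgAD against WT with their standard error (SE). The cutoffs of the study were used for calls, which ask for an adjusted p under 0.1 and for more than 0.6 on the log2 scale in either direction. The p values are those of the edgeR quasi-likelihood test on 496 miRNA that passed a filter on low counts, adjusted by the Benjamini-Hochberg method. For a single arm taken alone, the smallest p of a two-sided exact permutation test with 2 against 2 libraries is 0.333, so each call rests on a spread estimated across miRNA.

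The labels of the libraries conflict between the deposited files. The columns of the deposited normalized table hold whole reads divided by a size factor. Its column named WT_1 holds the reads of the count file labelled TgAD replicate 1 for 100% of its 674 miRNA, its column WT_2 those of the file labelled WT replicate 1, and its column TR_1 those of the file labelled TgAD replicate 2. The column TR_2 matches none of the 4 count files. In turn, the count file labelled WT replicate 2 matches no column, with 2.82 to 5.49% of values equal, so its label cannot be checked against that table. The count files and sample labels were followed here. Fold changes of the arms, the list medians and the medians by GC content are also given without the library labelled TgAD replicate 1. With the reads of the normalized table and its column names taken as they stand, edgeR called 0 of 480 miRNA, with 54 at an unadjusted p under 0.05, and DESeq2 called 4. No labels tie the libraries to litters or culture days, so p values measure the spread between these libraries only.

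Among the markers chosen for neurons, miR-128-3p, miR-137-3p and miR-138-5p had between 2616 and 240174 reads in every library. The summed list of 6 had 23947 to 38256 CPM in WT and 61496 to 86865 CPM in TgAD libraries, mostly miR-128-3p. Mean levels of miR-137-3p and miR-138-5p went the other way, from 4002 and 1438 CPM in WT to 1390 and 932 CPM in TgAD. Of these, miR-137-3p was called lower and miR-138-5p was not called. miR-124-3p had at most 7 reads in any library, and miR-9-5p and miR-9-3p had 0 reads in all 4, although both are defining miRNA of neural cells. The miR-9 arms lie at 3 loci each and overlap an arm on the opposite strand. All 3 oligodendrocyte markers had 0 reads in every library, of which miR-219a-5p and miR-338-3p also have an arm opposite, as do miR-142a-3p and miR-126a-3p named next, so a count of 0 for such an arm checks little. Summed over their lists, microglial and myeloid markers had 25.4 to 38.7 CPM in WT and 36.3 to 60.5 CPM in TgAD libraries, with miR-142a-3p at 0, and vascular markers 718 to 901 and 756 to 826 CPM, with miR-126a-3p and miR-126a-5p at 0. Erythroid markers had 1309 to 1331 CPM in WT and 645 to 956 CPM in TgAD libraries, with miR-486a-5p at 0. The pair for astrocytes and reactive glia had 18030 to 23288 CPM in WT and 14759 to 15933 CPM in TgAD libraries, and the 3 ependymal markers 576 to 633 and 192 to 259 CPM. In bulk samples such as these, fewer cells of a type and less RNA per cell cannot be told apart, and the part of these differences in the results below was not tested.

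In TgAD neurons, miR-139-5p and miR-153-5p were higher than in WT neurons, by 1.62-fold and 1.72-fold, whereas miR-139-3p, miR-153-3p, miR-129-1-3p and miR-129-5p did not pass the cutoffs. Thus 2 of the 6 tested arms were called, both of them higher, and 0 passed the stringent cutoffs of the study (more than 1 on the log2 scale, adjusted p under 0.01). Over all tested miRNA 33.1% were called, 15.7% as higher and 17.3% as lower, and 4.44% passed the stringent cutoffs. The share of called arms is near that of all tested miRNA. The median log2 fold change of the 6 arms was 0.33, against 0.03 over all 496. With total counts as library size, the median of all tested miRNA moved to -0.23, the calls moved from 78 higher and 86 lower to 43 higher and 122 lower, and 0 of the 6 arms were called.

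The 6 tested arms spanned a wide range of levels. miR-139-5p stood highest, at a mean of 2680 CPM over the 4 libraries and rank 46 of the 1966 listed miRNA. miR-153-3p followed at 470 CPM and miR-129-1-3p at 151 CPM. The libraries of these 3 arms did not overlap with each other. miR-139-3p at 68.6 CPM and miR-153-5p at 56.0 CPM overlapped, and the level of miR-129-5p was 4.05 CPM. The arms of known sequence are 21 to 23 nucleotides long, so their length differs little. The reads per molecule of each arm were not measured, so this order is one of reads.

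**Figure D1:**
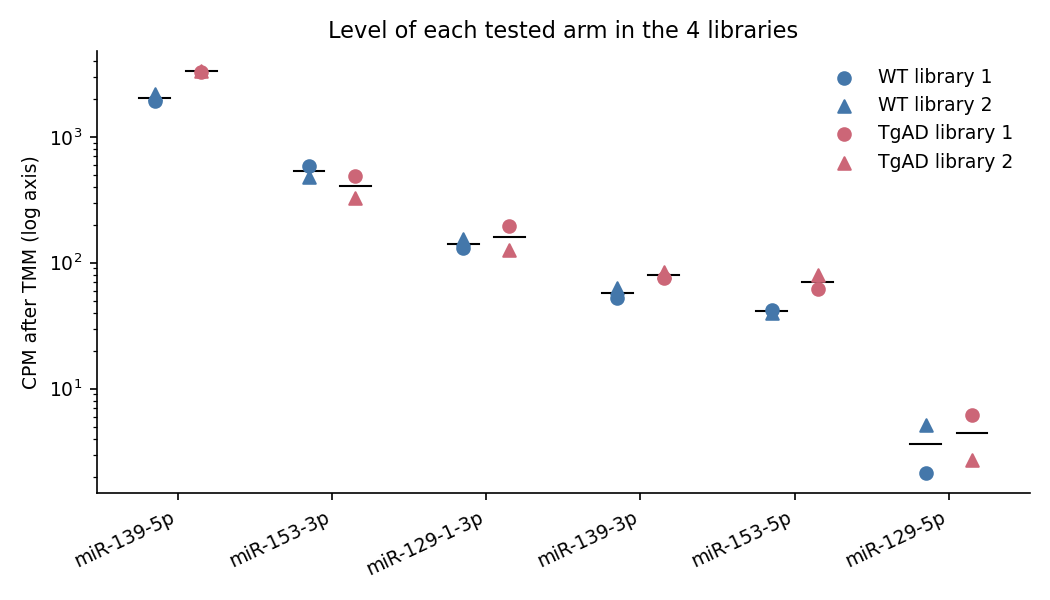
Level of each tested arm in CPM after TMM scaling (log axis) in the WT (blue) and TgAD (red) libraries, with circles for library 1, triangles for library 2 and black bars for the mean of the 2 libraries. Both TgAD libraries lie above both WT libraries for miR-139-5p, miR-139-3p and miR-153-5p, and the genotypes overlap for the other 3 arms.

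miR-139-5p, the arm that makes up most of the miR-139 reads, was counted 4520 and 6331 times for WT, against 9023 and 13419 times for TgAD. Its levels were 1923 and 2173 CPM in WT and 3287 and 3335 CPM in TgAD libraries, so both TgAD libraries lay above both WT libraries. The mean rose from 2048 ± 177 to 3311 ± 34.2 CPM (SD, n = 2 each), which is a log2 fold change of 0.69 (SE 0.187, adjusted p = 0.0402 in the edgeR quasi-likelihood test). The call was lost with total counts as library size, at 0.43 (adjusted p = 0.241, same test), and after a correction for GC content, at 0.48 (adjusted p = 0.149). It was also lost without the library labelled TgAD replicate 1, at 0.61 (adjusted p = 0.103), and without WT replicate 1, at 0.62 (adjusted p = 0.198), in the edgeR test.

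miR-139-3p, the rarer arm, was read 123 and 183 times for WT and 207 and 337 times for TgAD. Its levels were 52.3 and 62.8 CPM in WT and 75.4 and 83.8 CPM in TgAD libraries, again with no overlap. Means were 57.6 ± 7.42 and 79.6 ± 5.91 CPM (SD, n = 2 each), and the log2 fold change of 0.47 (SE 0.234, adjusted p = 0.209, edgeR quasi-likelihood test) did not pass, nor did the 0.44 without the library labelled TgAD replicate 1. Non-overlap was common here, since it held for 63.1% of all tested miRNA, with the TgAD libraries above in 30.6% and below in 32.5%. Of the 6 tested arms, 3 did not overlap.

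The ratio of the 2 arms within a library does not depend on how libraries are scaled. The 5p arm made up 97.4% (95% Wilson interval 96.8 to 97.8%) and 97.2% (96.8 to 97.6%) of the miR-139 reads in the WT libraries, and 97.8% (97.4 to 98.0%) and 97.6% (97.3 to 97.8%) in the TgAD libraries. Such intervals cover counting error only, since the reads carry no molecular identifiers. The log2 ratio of 5p to 3p reads was 5.15 ± 0.0602 in WT and 5.38 ± 0.0914 in TgAD neurons (SD, n = 2 each). This difference of 0.23 (SE 0.287, adjusted p = 0.601 in limma over 138 hairpins) was smaller than its standard error. Hence no change in arm usage of miR-139 was detectable, while both of its arms had positive log2 fold changes.

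miR-153-3p, the abundant arm of miR-153, had nearly equal read numbers in all libraries, 1378 and 1386 in WT and 1351 and 1307 in TgAD. After scaling, its levels were 586 and 476 CPM in WT and 492 and 325 CPM in TgAD libraries. The genotypes overlapped, since TgAD replicate 1 lay between the WT libraries. Mean levels were 531 ± 78.1 CPM for WT and 408 ± 118 CPM for TgAD (SD, n = 2 each), with a log2 fold change of -0.38 (SE 0.259, adjusted p = 0.340, edgeR quasi-likelihood test). Without the library labelled TgAD replicate 1 it was -0.81 and was called (adjusted p = 0.0783, edgeR), and without TgAD replicate 2 it was -0.08. After correction for GC content its sign turned, to 0.27 (adjusted p = 0.516, edgeR), so its direction was not determined.

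miR-153-5p, the opposite arm, was read 99 and 117 times for WT and 169 and 322 times for TgAD. Its levels were 42.1 and 40.2 CPM in WT and 61.6 and 80.0 CPM in TgAD libraries, so the TgAD libraries lay above and apart from each other. The mean rose from 41.1 ± 1.38 to 70.8 ± 13.1 CPM (SD, n = 2 each), which is a log2 fold change of 0.79 (SE 0.252, adjusted p = 0.0651 in the edgeR quasi-likelihood test). With total counts as library size it was 0.51 (adjusted p = 0.278) in edgeR and with DESeq2 0.77 (adjusted p = 0.104), and neither passed. Leaving out WT replicate 1, WT replicate 2 or TgAD replicate 2 gave 0.83, 0.74 and 0.61 with adjusted p values of 0.197, 0.267 and 0.204 in edgeR, whereas without the library labelled TgAD replicate 1 it was 0.86 and passed (adjusted p = 0.0878).

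In the reported setting the arms of miR-153 thus had log2 fold changes of opposite sign, although that of miR-153-3p was not called. After correction for GC content both were positive, at 1.03 for miR-153-5p and 0.27 for miR-153-3p. The 5p arm made up 6.70% (95% Wilson interval 5.54 to 8.09%) and 7.78% (6.53 to 9.25%) of the miR-153 reads in the WT libraries. In the TgAD libraries it made up 11.1% (9.64 to 12.8%) and 19.8% (17.9 to 21.8%). The log2 ratio of 5p to 3p reads was -3.68 ± 0.164 in WT and -2.51 ± 0.69 in TgAD neurons (SD, n = 2 each). The difference of 1.17 (SE 0.399, adjusted p = 0.0717 in limma, with a shared spread over 138 hairpins) passed the same cutoffs, and edgeR's diffSpliceDGE gave 1.17 (adjusted p = 0.0202). Over all hairpins with both arms tested, 39.9% passed, so a shift between arms was common in these libraries. The ratios were not corrected for GC content, which is 43.5% for miR-153-5p and 36.4% for miR-153-3p, and its part in the shift was not tested. The size of the shift differed between the TgAD libraries. Without TgAD replicate 2 it was 0.68 and no longer passed (adjusted p = 0.320 in limma), and without WT replicate 1 it was 1.05 and did not pass (adjusted p = 0.144), whereas without the library labelled TgAD replicate 1 it was 1.66 (adjusted p = 0.00508, limma).

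**Figure D2:**
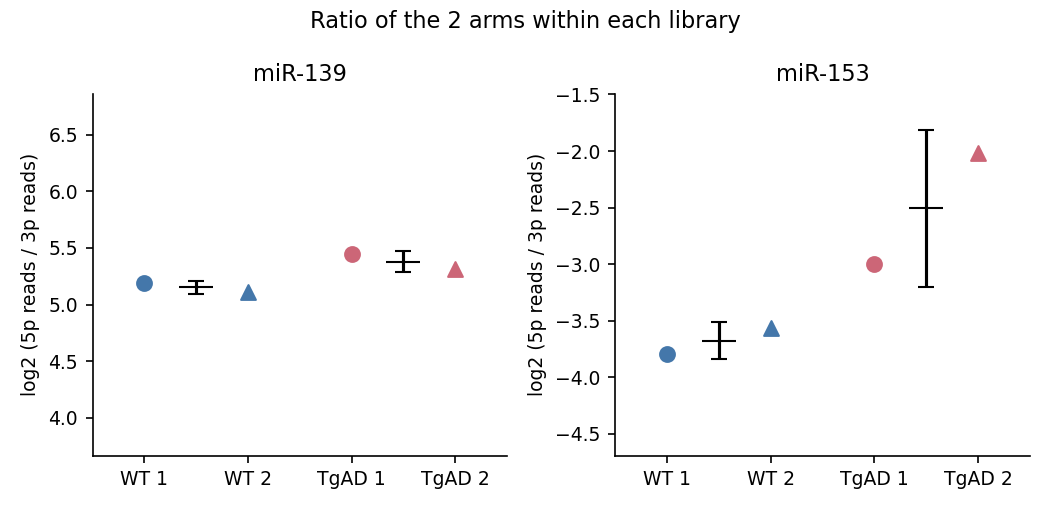
Log2 ratio of 5p to 3p reads of miR-139 (left) and miR-153 (right) in each library, with axes of equal length, WT in blue and TgAD in red, and the mean with SD of 2 libraries in black. For miR-153 both TgAD libraries, of which the higher lies at -2.02, are above the WT libraries at -3.79 and -3.56, and for miR-139 all 4 libraries lie between 5.11 and 5.44.

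miR-129-1-3p, the arm by which miR-129 was mainly seen here, was read 307 and 446 times for WT, against 538 and 508 times for TgAD. Its levels were 131 and 153 CPM in WT and 196 and 126 CPM in TgAD libraries, which overlapped. Means were 142 ± 15.9 and 161 ± 49.3 CPM (SD, n = 2 each), and the log2 fold change of 0.18 (SE 0.271, adjusted p = 0.670, edgeR quasi-likelihood test) was smaller than its standard error. Its sign rested on 1 library, since it was -0.27 without the library labelled TgAD replicate 1.

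miR-129-5p, the arm known for its role in excitability, was read 5 and 15 times for WT and 17 and 11 times for TgAD. Its levels were 2.13 and 5.15 CPM in WT and 6.19 and 2.73 CPM in TgAD libraries, with overlap. At 3 reads, taken as the floor of detection, the level is between 0.746 and 1.28 CPM, so this arm was within 10-fold of the floor in every library. Its log2 fold change of 0.20 (SE 0.631, adjusted p = 0.844 in the edgeR test) ranged from -0.54 without the library labelled TgAD replicate 1 to 0.99 without WT replicate 2. The SE of this arm is close to the log2 fold change of miR-139-5p, so a difference of that size was not detectable at these read numbers.

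miR-129-2-3p had 0 and 1 reads in WT and 0 in both TgAD libraries, which is at or under the floor in all 4. By read number alone, a count of 0 allows up to 1.28 CPM in WT replicate 1 and up to 1.09 and 0.746 CPM in the TgAD libraries. This arm overlaps miR-129b-5p on the opposite strand, so these limits hold only if reads of overlapping arms were counted. No fold change is given.

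Of the arms on the strand opposite to Mir129-2, miR-129b-3p had 6 reads in each WT library and 28 and 50 reads in the TgAD libraries. In CPM this was 2.55 and 2.06 in WT and 10.2 and 12.4 in TgAD libraries. It was called higher, with a log2 fold change of 2.29 (SE 0.413, adjusted p = 0.0157, edgeR quasi-likelihood test), and stayed between 2.12 and 2.46 with each library left out in turn. miR-129b-5p was read 6 and 1 times for WT and 1 and 7 times for TgAD, and was not tested. With the column names of the normalized table miR-129b-3p was 1.53 and no longer called (adjusted p = 0.471, edgeR). Across RefSeq, 54 of 59 arms with 1 locus and an arm on the opposite strand had at most 3 reads in every library, 91.5%, against 904 of 1563 arms with 1 locus and no arm opposite, 57.8%. The part of the counting in this difference was not tested.

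Across the alternative settings, miR-139-5p and miR-153-5p kept a positive log2 fold change in all 14, and each was still called in 8. miR-139-3p was positive in all 14 and called in none. miR-153-3p, miR-129-1-3p and miR-129-5p each changed sign under at least 1 setting, so no direction is given for them.

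**Figure D3:**
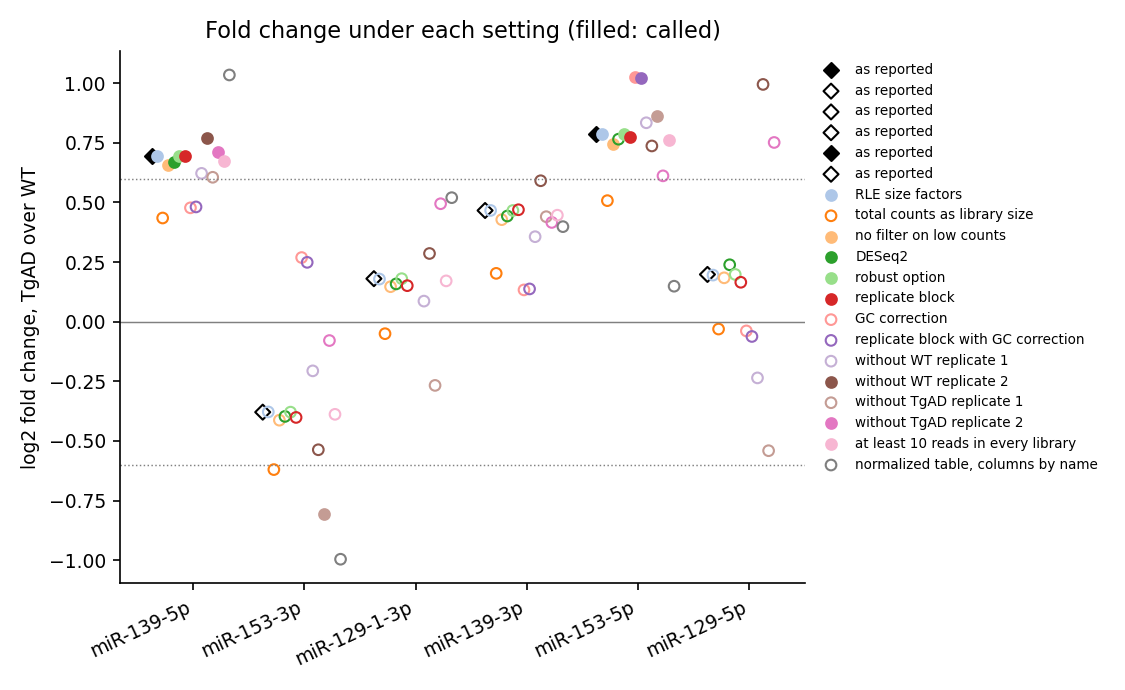
Log2 fold change (TgAD over WT) of each tested arm under the reported setting (black diamond) and every alternative (coloured circles), where filled symbols are past a log2 fold change of 0.6 (dotted lines) with an adjusted p under 0.1. For miR-139-5p and miR-153-5p every setting lies above 0, and for miR-153-3p, miR-129-1-3p and miR-129-5p settings lie on both sides of it.

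Fold changes moved with base composition across the tested miRNA. Over the 441 with a RefSeq sequence, Spearman's rho between GC content and log2 fold change was 0.42, a description across miRNA that share the same 4 libraries. The median log2 fold change was -0.76 for the 75 miRNA under 40% GC and 0.32 for the 69 at 60% or more. Without the library labelled TgAD replicate 1, rho was 0.36 and these medians were -0.82 and 0.12. miR-153-3p is the poorest in GC of the tested arms with a sequence, at 36.4%, and miR-153-5p has 43.5%. miR-139-5p has 54.5% and miR-139-3p 68.2%, where the medians of all tested miRNA were positive. After a correction for GC content, miR-139-5p and miR-139-3p had log2 fold changes of 0.48 and 0.13, and neither was called, whereas miR-153-5p had 1.03 and was called (adjusted p = 0.0376, edgeR).

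**Figure D4:**
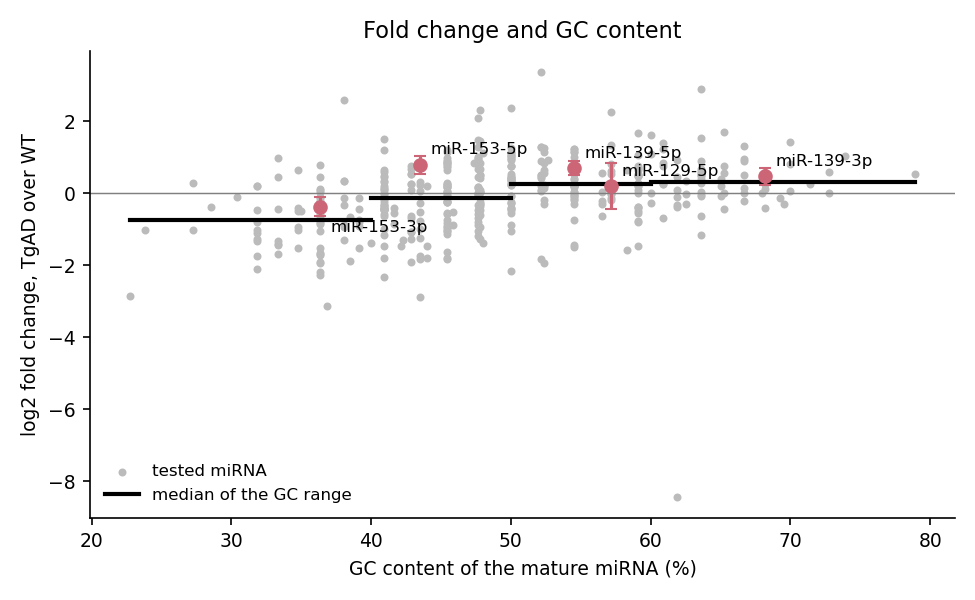
Log2 fold change of each tested miRNA (TgAD over WT) against the GC content of its mature sequence in percent, with black lines for the median within 4 ranges of GC content and red points with SE bars for the tested arms of miR-129, miR-139 and miR-153. The medians rise from -0.76 under 40% GC to 0.32 at 60% or more, and miR-153-5p lies above the median of its range (-0.13).

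Other miRNA with patterns near those of the arms were found by Euclidean distance between log2 CPM values centred over the 4 libraries, among 345 tested miRNA with at least 50 reads on average. Nearest to miR-139-5p were miR-298-5p and miR-504-5p, at distances of 0.129 and 0.135 log2 units and with log2 fold changes of 0.76 and 0.74. Nearest to miR-139-3p were miR-7226-3p and miR-99b-5p (0.0564 and 0.0891). The pattern of miR-153-3p was nearest to those of miR-301b-3p and miR-199b-5p (0.0706 and 0.0933), and that of miR-153-5p to those of let-7b-3p and miR-1298-5p (0.116 and 0.131). For miR-129-1-3p the nearest were miR-361-5p and miR-34b-3p (0.134 and 0.202), and for miR-129-5p miR-34b-3p and miR-340-5p at the larger distances of 0.476 and 0.592. With 4 libraries such nearness is a description only.

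Among 18 other miRNA known to be enriched in neurons, 14 were tested, of which 4 were higher, 2 lower and 8 not called, with a median log2 fold change of 0.09. Over all 496 tested miRNA, 78 were higher (15.7%) and 86 lower (17.3%), with a median of 0.03. The higher members were miR-128-3p, miR-132-3p, a miRNA induced by neuronal activity, miR-383-5p and miR-135b-5p, with log2 fold changes of 1.49, 0.95, 0.93 and 0.63. The lower ones were miR-137-3p at -1.53 and miR-488-3p, which lies in an intron of Astn1, at -0.63. miR-128-3p and miR-488-3p were the most abundant of the list, at means of 48759 and 6719 CPM. Without the library labelled TgAD replicate 1, fewer members were called higher, and the median of the list was -0.25. Over all tested miRNA it was then -0.10. miR-128-3p, miR-132-3p and miR-135b-5p were then 1.12, 0.52 and 0.29 and not called (adjusted p = 0.119, 0.111 and 0.336, edgeR). miR-135b-5p kept its call in 6 of 12 alternatives and miR-488-3p in 8 of 14.

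Of 20 miRNA tied to neuronal excitability or seizures, 16 were tested, with 3 higher, 2 lower and 11 not called and a median of -0.09. The same counts over all 496 tested miRNA were 78 higher (15.7%) and 86 lower (17.3%), with a median of 0.03. Besides miR-128-3p and miR-132-3p, which are on both lists, miR-204-5p was higher at 0.89, and miR-106b-5p and miR-181b-5p were lower at -1.91 and -0.88. In level, miR-106b-5p came second to miR-128-3p on this list, at a mean of 2237 CPM. Without the library labelled TgAD replicate 1, the median of this list was -0.40, against -0.10 over all tested miRNA. The counts of the list also moved without that library, as did those of all tested miRNA.

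Of 22 arms of other miRNA that lie in introns of genes active in brain, as miR-139 and miR-153 do, 16 were tested, with 6 higher, 2 lower and 8 not called and a median log2 fold change of 0.51. Beside this, 78 (15.7%) of all 496 tested miRNA were higher and 86 (17.3%) lower, with a median of 0.03. The higher arms were miR-340-3p, miR-149-5p, miR-708-3p, miR-204-5p, miR-1298-5p and miR-504-5p, between 1.51 and 0.74, and the lower ones were miR-488-3p and miR-708-5p at -0.63 and -0.61. The most abundant were miR-340-5p, which was not called at 0.28, and miR-488-3p. Both lower arms lie near the cutoff, and 0 arms of this list were lower without WT replicate 2 or without TgAD replicate 2. Without the library labelled TgAD replicate 1 the median of the list was 0.38, and without WT replicate 1 it was 0.69. Over all tested miRNA these medians were -0.10 and 0.08. Fewer arms of the list were called without WT replicate 1, as of all tested miRNA. miR-708-3p was 0.62 and not called without TgAD replicate 2 (adjusted p = 0.103, edgeR), and miR-504-5p kept its call in 8 of 14 alternatives. No test was made of whether any list differs from the other miRNA.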

How the data were processed

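Small RNA from 2 WT and 2 TgAD cultures was sequenced as 50 bp reads. The authors mapped trimmed reads to GRCm38 with Bowtie2 without mismatch, counted them per mature miRNA with HTSeq-count and miRBase, and deposited raw counts, 1 file per library. They also deposited a table of normalized signal, in which counts were divided by library size factors, from which whole reads were recovered for 100% of values (within 1e-06 reads), and whose columns conflict with the count files. It was used only for that comparison and for 1 alternative.

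Counts were analyzed with edgeR 4.0.16 in R 4.3.3 (TMM, filterByExpr, quasi-likelihood test with genotype as the only factor), and arm ratios with limma 3.58.1 (eBayes with trend) on log2 ratios with a pseudocount of 0.5. SE is the size of a log2 fold change divided by the square root of F. The depth of 2070204 to 4811010 reads puts the floor of 3 reads at 0.746 to 1.28 CPM. Alternatives were RLE, total counts, other filters, DESeq2 1.42.0, the robust option, the replicate block, a GC correction (local regression, span 0.75, on mature GC content), another pseudocount, diffSpliceDGE and leaving out each library. Where 1 library of a genotype remains, it is assumed to vary like the others. Both models were tested on simulated counts. The members, lists and tests were chosen with earlier results of these data known. Named miRNA are the members, arms of miR-129b, the 2 nearest patterns per tested arm, and in each list of neuronal, excitability or intronic miRNA every called member and the 2 most abundant. Whether the labels' replicates share a litter is not given.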

Additional observations from a re-analysis of the deposited data

Results flagged for a closer look

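The column TR_2 of the normalized table holds a library that is in none of the 4 count files and so in no comparison above. In this column the following values lay above both columns named WT, in reads divided by the size factor of the table. That factor is 0.554 for TR_2, against 1.15 and 0.954 for the columns named WT. The share of all 674 miRNA above both was not computed, so these values cannot be judged against it. miR-139-5p had 17393 there, against at most 7869 in the columns named WT. miR-129-1-3p had 816 against at most 469, and miR-139-3p had 202 against at most 181. miR-129b-3p had 61.4 against at most 24.4. The higher of the columns named WT was, for each of these, the one that holds the reads of the count file labelled TgAD replicate 1. miR-153-3p, at 518, and miR-153-5p, at 81.2, lay below both columns named WT. The order of miR-139-3p depends on the scaling. It had 112 of 1926952 recovered reads in TR_2, against 207 of 2758098 and 123 of 2069868 in the columns named WT.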

How the results depend on the processing

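Over 14 alternatives, miR-139-3p kept its sign and stayed uncalled (0.13 to 0.59), as did the arm ratio of miR-139 over 9 (0.16 to 0.55). miR-139-5p kept its sign in all 14 and its call in 8, and miR-153-5p likewise kept its sign in 14 and its call in 8. With total counts as library size, miR-139-5p (0.43) and miR-153-5p (0.51) lost their calls, and miR-129-5p (-0.031), miR-129-1-3p (-0.050), miR-34b-3p (-0.011) and miR-361-5p (-0.17) changed sign. With the GC correction, miR-139-5p was 0.48, miR-129-5p -0.039 and miR-153-3p 0.27, and miR-129-1-3p could not be fitted since it has no sequence in RefSeq. With DESeq2, miR-153-5p was 0.77 and lost its call. The replicate block changed no call of these arms (188 miRNA called in all). Its numbers share no stated litter or batch. The difference in log2 CPM between replicates 1 and 2 of WT correlated at 0.22 with that of TgAD over 496 miRNA. The replicate block with GC correction gave 97 called miRNA, with miR-139-5p at 0.48 (lost), miR-129-5p at -0.062 and miR-153-3p at 0.25.

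Leaving out 1 library at a time gave 118 to 143 called miRNA and 37 to 51 hairpins with a shifted arm ratio, against 164 and 55. The log2 fold change was 0.61 to 0.77 for miR-139-5p, 0.61 to 0.86 for miR-153-5p, -0.81 to -0.079 for miR-153-3p, -0.27 to 0.49 for miR-129-1-3p and -0.54 to 0.99 for miR-129-5p, which was -0.24 without WT replicate 1. The arm ratio difference of miR-153 was 0.68 to 1.66. Among other named miRNA, it was -0.24 to 0.56 for miR-34b-3p, -0.11 to 0.82 for miR-340-5p and -0.40 to 0.38 for miR-361-5p. Called miRNA that moved by over 1.5 times and lost their calls were miR-132-3p (0.52) and miR-135b-5p (0.29) without TgAD replicate 1 and miR-708-3p (0.62) and let-7b-3p (0.49) without TgAD replicate 2.

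With the reads of the normalized table and its columns taken by name, an alternative chosen after seeing the data, edgeR called 0 of 480 miRNA (54 at an unadjusted p under 0.05, and 4 called by DESeq2) and limma 0 of 129 arm ratios (12 at an unadjusted p under 0.05). miR-139-5p was then 1.03, miR-139-3p 0.40, miR-129-1-3p 0.52 and miR-153-5p 0.15. miR-153-3p was -0.996 (adjusted p = 0.443, edgeR, not called), the lowest of its alternatives. The arm ratio difference of miR-153 was 1.05, miR-340-5p -0.17, miR-361-5p -0.18, miR-135b-5p -0.30 and miR-129b-3p 1.53 (adjusted p = 0.471, edgeR, no longer called). miR-129-5p did not pass the filter there. The cause of these changes was not tested. Few reads limit miR-129-5p, at 5 to 17, and left miR-129-2-3p untested. The parts of depth and of the counting of overlapping arms in these low counts were not tested.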

Other observations

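Among the other intronic hairpins, the ratio of arms of miR-708, which lies in an intron of Tenm4, also differed between genotypes, and was chosen here after its values were seen. Its log2 ratio of 5p to 3p reads was -1.34 ± 0.201 in WT and -3.06 ± 0.805 in TgAD neurons (SD, n = 2 each), a difference of -1.72 (SE 0.387, adjusted p = 0.0278 in limma). It stayed past the cutoffs with each library left out in turn, between -2.28 without the library labelled TgAD replicate 1 and -1.15 without TgAD replicate 2. The ratio of miR-340, chosen in the same way, was 5.64 ± 0.631 in WT and 4.54 ± 0.693 in TgAD neurons (SD, n = 2 each), and its difference of -1.10 (SE 0.436, adjusted p = 0.102 in limma) did not pass. It was -1.55 without WT replicate 1 and -1.59 without the library labelled TgAD replicate 1, which passed, and -0.66 without WT replicate 2 and -0.61 without TgAD replicate 2, which did not.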
